A study of Mus musculus with 9 samples.

Results

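Alpha TC6 cells with a stable knockdown of insulin receptor substrate 2 (alphaIRS2KD) were compared with control alpha TC6 cells. The comparison used the 3 arrays labelled as IRS2 knockdown and the 3 labelled as control, 6 of the 9 arrays of the series, and read 22180 genes on each. Alpha TC6 is a mouse pancreatic alpha-cell line derived from a glucagon-producing tumour. All groups were this line infected with lentivirus and selected with puromycin. The virus carried a nonsilencing shRNA in control cells and an shRNA against IRS2 in alphaIRS2KD cells. The remaining 3 arrays came from cells with an shRNA against IRS1 (alphaIRS1KD) and were used here for the estimate of spread and for a direct comparison of the 2 knockdowns. All cells were grown in serum-containing RPMI medium, and no insulin or glucose treatment is named for the arrayed samples. The sources speak of 2 knockdown cell lines and do not state how many lines or clones each shRNA gave. An effect of the knockdown and a property of the line that carries it can therefore not be told apart. The sources also do not say whether replicates were separate cultures. The p-values then measure only the spread between these samples, which may be technical.

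Insulin receptor substrates are adaptor proteins that the activated insulin and IGF-1 receptors phosphorylate, and they recruit PI 3-kinase, which leads to activation of AKT. AKT in turn keeps FOXO transcription factors out of the nucleus, and Irs2 is itself a known FOXO target gene. In alpha cells, which secrete glucagon when glucose is low, insulin acts through this pathway to restrain glucagon secretion. The comparison asks which transcripts differ when IRS2 rather than IRS1 is reduced.

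The targeted transcript was lower on every alphaIRS2KD array. Irs2 had a log2 signal of 10.72, 10.64 and 10.58 on control arrays and of 10.09, 10.02 and 10.11 on alphaIRS2KD arrays. The groups did not overlap, and the difference was -0.58 on the log2 scale (SE 0.06, 1.49-fold lower, adjusted p = 0.0017 from limma). It was -0.60 without alphaIRS2KD replicate 3 (adjusted p = 0.0057). Irs1, the substrate that was not targeted, was at 8.06, 8.09 and 8.07 in control and at 8.10, 8.16 and 8.01 in alphaIRS2KD cells (difference 0.02, SE 0.06, adjusted p = 0.95 from limma), so its groups overlapped. Irs2 lies on the minus strand of chromosome 8 (10984681 to 11008929, GRCm38.p6). The 250 bases upstream of its annotated start (chr8:11008930-11009179) are shown because Irs2 is the gene that defines the groups, and neither of the motifs described further on was found in them.
Irs2 upstream region: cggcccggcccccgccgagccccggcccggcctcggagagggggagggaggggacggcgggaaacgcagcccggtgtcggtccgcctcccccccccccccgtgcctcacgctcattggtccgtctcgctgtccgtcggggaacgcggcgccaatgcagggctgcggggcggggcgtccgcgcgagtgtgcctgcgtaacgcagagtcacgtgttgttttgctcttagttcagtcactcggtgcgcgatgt

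Alpha-cell markers were expressed in both groups. Gcg, which encodes glucagon, had a log2 signal of 13.25, 13.25 and 13.23 in control and of 13.21 on each alphaIRS2KD array (difference -0.03, SE 0.04, adjusted p = 0.85 from limma). This is close to the brightest signal on the arrays, 13.53 to 13.61. Whether the arrays resolve differences at this level was not tested, so the small difference does not show that the transcript was unchanged. The 14 measured alpha-cell markers summed to a linear signal of 25500 to 25700 on control and 23500 to 23900 on alphaIRS2KD arrays. Bright genes weigh most in such a sum. Ttr, for example, had a mean of 12.80 in control and 12.54 in alphaIRS2KD cells and was not called (adjusted p = 0.083 from limma). Of the 14 markers 10 had a positive difference, and the median was 0.05. Slc38a5 was called lower, and Gria3 (0.38) and Irx1 (0.35) were called higher. Both lost the call without alphaIRS2KD replicate 1 (adjusted p = 0.067 and 0.087), alphaIRS2KD replicate 2 or control replicate 2, and Irx1 also without control replicate 3 or alphaIRS1KD replicate 2. The amino acid transporter gene Slc38a5 was at 11.61, 11.65 and 11.57 in control and at 10.97, 11.00 and 10.87 in alphaIRS2KD cells (difference -0.66, adjusted p = 0.00076 from limma). Other alpha-cell markers without a probe of 1 gene symbol were not analysed here. Of the 7 delta-cell markers, Rbp4, a retinol carrier, was called lower, and lost the call without alphaIRS2KD replicate 2 or any 1 control array (adjusted p up to 0.10). The summed signal of this list was 4420 to 4510 in control and 3450 to 3770 in alphaIRS2KD cells. Rbp4 was its brightest gene, with a mean of 11.98 in control and 11.65 in alphaIRS2KD cells. Of the 7 markers 4 had a positive difference, and the median was 0.05. What these shifts contribute to the results below was not tested. None of the 12 beta-cell, 5 PP and epsilon, 7 acinar, 5 duct, 10 fibroblast and stellate, 9 endothelial or 9 immune markers was called in limma. The shares over all genes were 0.893% higher and 0.694% lower, so few calls would be met in such short lists. At an unadjusted p under 0.05 in limma, 3 beta-cell markers were higher and 3 lower, and each other list had at most 1 such gene. Differences of the 12 beta-cell markers ranged from -0.47 to 1.19.

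Arrays were alike in distribution, with medians between 5.03 and 5.11 and a brightest signal between 13.53 and 13.61, and with 3 arrays a group their number limits the precision. AlphaIRS2KD replicate 3 lay apart from the other arrays of its group. Its Euclidean distance over all genes was 33.69 to replicate 1 and 35.88 to replicate 2, against 29.74 between those replicates and 25.87 to 27.44 between control arrays. It was 32.39 to 35.1 from the control arrays, about as far as from its own group. Each result below is therefore also given without it where this ends a call.

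AlphaIRS2KD cells differed from control cells in 352 of the 22180 genes in limma (1.59% of those tested, adjusted p under 0.05). Of these, 198 (0.893%) were higher and 154 (0.694%) were lower. In all of them the 3 alphaIRS2KD arrays lay beyond the 3 control arrays, an arrangement that 6.94% of all genes showed upwards and 6.8% downwards. Most changes were modest. The median absolute log2 fold change of the called genes was 0.50, 219 of them (62.2%) changed less than 1.5-fold, and 24 higher and 8 lower genes reached 2-fold. Without alphaIRS2KD replicate 3, 260 genes (1.17%) were called higher and 124 (0.559%) lower, and 165 (0.744%) and 92 (0.415%) of these, respectively, were among the calls made with all arrays. Leaving out one of the other arrays gave fewer calls, from 109 higher and 69 lower without control replicate 3 to 158 higher and 112 lower without alphaIRS1KD replicate 1. Control replicates 1 and 2 gave 130 and 116 higher and 81 and 72 lower genes when left out, alphaIRS2KD replicates 1 and 2 gave 116 and 125 higher and 92 and 96 lower, and alphaIRS1KD replicates 2 and 3 gave 143 and 156 higher and 88 and 112 lower.

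Replicates 1 and 2 chose the genes called without replicate 3, so a smaller difference in replicate 3 is partly given by that choice, and the values are a description. Over the genes called higher without replicate 3, the median difference from control was 0.50 in replicates 1 and 2 and 0.36 in replicate 3. Over those called lower it was -0.45 and -0.49. It lay beyond the control arrays in the same direction for 233 of the 260 higher and 103 of the 124 lower genes, while over all genes it lay above them in 27.4% and below them in 31.3%. Its value was within the control range for 21 and 10, and on the opposite side of it for 6 and 11.

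**Figure D1:**
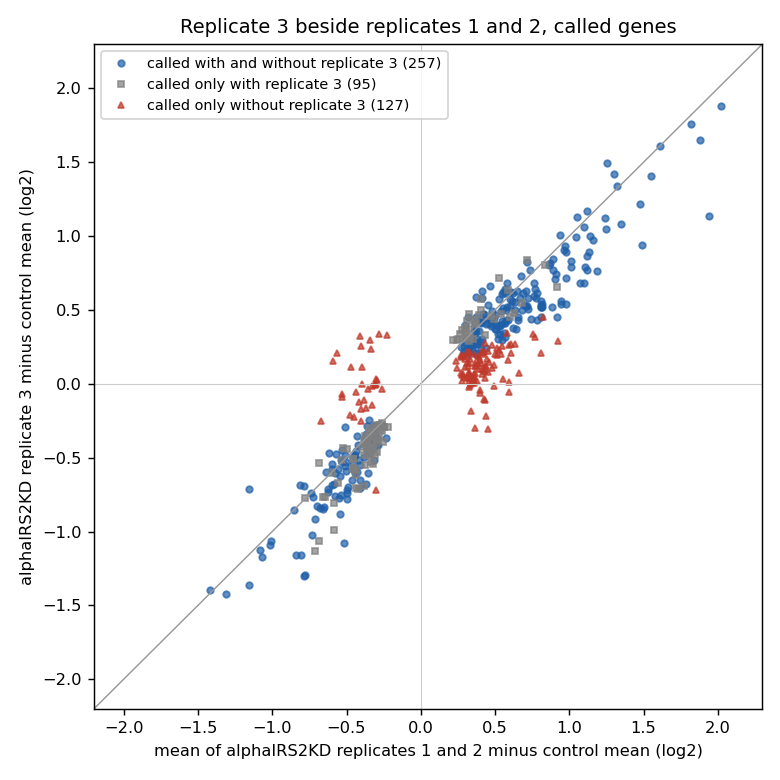
Difference from the control mean in alphaIRS2KD replicate 3 (vertical axis, log2) against that in the mean of replicates 1 and 2 (horizontal axis, log2), 1 point per gene called with or without replicate 3; the diagonal marks equal differences. The 257 genes called both ways lie along the diagonal, 95 were called only with replicate 3, and most of the 127 called only without it lie nearer to 0 in replicate 3 or on its other side.

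The genes that rose most in alphaIRS2KD cells, and kept their call without replicate 3, had various roles, and 3 receptor genes were among them. Tshr, the receptor for thyrotropin, which signals through cAMP, was at 6.61, 6.70 and 6.64 in control and at 8.43, 8.51 and 8.41 in alphaIRS2KD cells, 3.48-fold higher (difference 1.80, SE 0.05, adjusted p = 1.5e-06 from limma). Ptprk, a receptor-type tyrosine phosphatase that binds itself across cell contacts, was at 5.92, 5.72 and 5.80 against 7.74, 7.65 and 7.46 (difference 1.80, SE 0.08). Kit, the receptor tyrosine kinase for stem cell factor, was at 7.63, 7.47 and 7.62 against 9.18, 9.07 and 8.98, which is 2.83-fold higher (SE 0.07 on the log2 scale). For these receptors the gap between the groups was several times the spread within either. Nexmif, a neurite extension factor gene, varied more. It was at 3.65, 3.44 and 3.65 in control and at 5.68, 5.36 and 4.71 in alphaIRS2KD cells (difference 1.67, SE 0.23, adjusted p = 0.0085 from limma), with replicate 3 the lowest of its group. Its mean control signal was above that of 14.9% of genes only, and detection above background was not analysed here, so the size of this difference is less certain. The homeobox gene Barhl2 rose by a difference of 1.34 (SE 0.10), and Ebf1, a transcription factor gene of B-cell and neuronal development, by 1.33 (SE 0.16). Cbr2, a carbonyl reductase (1.39), and the adaptor gene Sorbs2 (1.26) also rose. The brighter Sorbs2 probe was used, and a dimmer one had a difference of 0.15 (adjusted p = 0.86 over all probes).

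Serpina1c, one of a family of alpha-1-antitrypsin genes, had the largest difference of all called genes. It was at 4.09, 4.18 and 3.66 in control and at 6.00, 6.00 and 5.86 in alphaIRS2KD cells (difference 1.97, SE 0.14, adjusted p = 0.00035 from limma). Its mean control signal was above that of 20.1% of genes only, so the size of this difference is less certain, as for Nexmif. The family members are close in sequence, so the signal cannot be assigned to this copy with certainty. The probes for Serpina1a (0.02), Serpina1b (0.21), Serpina1d (0.13) and Serpina1e (-0.16) did not pass the test.

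Among the genes that fell, Zdbf2, an imprinted gene expressed from the paternal allele, had the largest change. It was at 10.74, 10.64 and 10.65 in control and at 9.28, 9.24 and 9.28 in alphaIRS2KD cells (difference -1.41, SE 0.11, adjusted p = 0.00059 from limma), and its mean in alphaIRS1KD cells was lower still, at 5.78. Cped1, named for its cadherin-like domain, was at 7.59, 7.54 and 7.54 against 6.25, 6.24 and 6.14 (difference -1.35, SE 0.06). A dimmer Cped1 probe had a difference of -0.34 (adjusted p = 0.50 over all probes). Rcn3, a calcium-binding protein of the endoplasmic reticulum, was at 9.82, 9.81 and 9.79 against 8.78, 8.67 and 8.68 (difference -1.10, SE 0.06). For each of these the arrays of a group lay within a narrow band. Ddr2, a receptor tyrosine kinase activated by collagen, fell by 1.23 (SE 0.12), Rgs5, which speeds GTP hydrolysis by G proteins, fell by 1.10 (SE 0.11, with -0.96 on a dimmer probe), and the protocadherin gene Pcdh17 fell by 1.01 (SE 0.17). Maob, which encodes the mitochondrial monoamine oxidase B, was at 7.80, 7.80 and 7.87 against 7.04, 7.03 and 6.52, with replicate 3 the lowest. Gsdma, a gasdermin gene (-0.95), and Lonrf2, a RING-finger gene (-0.92), also fell. Of the genes in this paragraph, Pcdh17 and Gsdma lost their call without single arrays, with an adjusted p of up to 0.098 without control replicate 3 and up to 0.12 without control replicate 1.

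**Figure D2:**
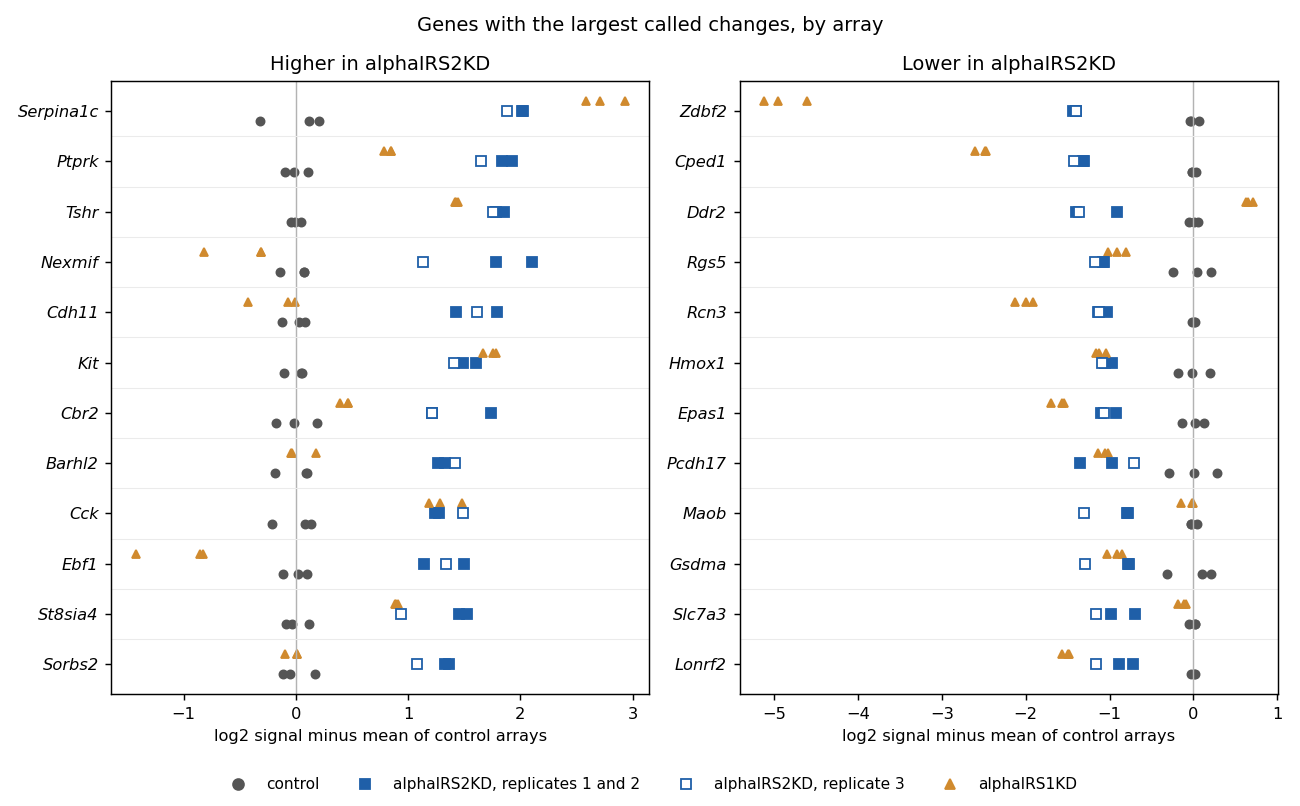
Log2 signal minus the mean of the 3 control arrays (horizontal axis) for the 12 genes per direction with the largest called changes that kept their call without replicate 3; 1 symbol per array. All alphaIRS2KD arrays lie to one side of the control arrays, and of these genes Ebf1 and Ddr2 were called in the opposite direction in alphaIRS1KD cells.

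Axon guidance genes, which encode secreted and membrane cues and their receptors and also act in cell contact outside the nervous system, held the most calls upwards of the lists. Of 59 measured, 10 were higher and 1 was lower in limma, against 0.893% and 0.694% of all genes, and the median difference was 0.05, against -0.0032 over all genes. The called genes include ligands and receptors of several families. Dcc, a receptor for netrin, was at 4.72, 4.97 and 4.63 in control and at 5.69, 5.87 and 5.60 in alphaIRS2KD cells (difference 0.95, SE 0.10, adjusted p = 0.0019 from limma). Its ligand gene Ntn1 was at 6.04, 6.29 and 6.35 against 7.07, 6.91 and 6.91 (difference 0.74, SE 0.09, adjusted p = 0.0048). The 2 groups did not overlap for either gene. The ephrin genes Efna5 (0.65) and Efnb2 (0.54), Sema5a (0.82) and Sema6b (0.35) of the semaphorins, the plexin genes Plxna2 (0.44) and Plxnb2 (0.31), which encode semaphorin receptors, Robo2 (0.47), a Slit receptor gene, and Unc5a (0.47) were the others called higher. Unc5c, another netrin receptor gene, was the member called lower (-0.34). Without replicate 3, 8 were higher and 1 was lower, since Plxna2 (adjusted p = 0.053) and Unc5a (adjusted p = 0.068) lost the call. Efnb2 and Sema5a lost it without other arrays (adjusted p up to 0.10 without control replicate 2 and 0.094 without control replicate 3).

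Of 55 cadherins and catenins, 5 were higher (9.09%) and 2 were lower (3.64%), and of 58 immunoglobulin adhesion molecules, neurexins and neuroligins 5 were higher (8.62%) and none was lower in limma, against 0.893% and 0.694% of all genes. Most members did not pass the test, and the medians were 0.03 and 0.04. Cdh11, a classical cadherin gene, was at 5.94, 5.88 and 5.73 in control and at 7.28, 7.65 and 7.46 in alphaIRS2KD cells (difference 1.61, SE 0.13, adjusted p = 0.00059 from limma). Ctnna1, whose product alpha-catenin ties cadherins to actin, was at 6.91, 6.75 and 6.75 against 7.92, 7.96 and 7.80 (difference 1.09, SE 0.06, adjusted p = 0.00013). Cdh6 (0.85) and Ctnnd2, a neuronal delta-catenin gene (0.46), rose too, and Pcdh17 (-1.01) and Pcdh10 (-0.29) were the 2 members called lower. In the second list Adgrl2, which encodes the latrophilin 2 receptor of cell contacts, was at 6.07, 5.99 and 5.88 against 7.07, 7.14 and 7.15 (difference 1.14, SE 0.06, adjusted p = 7.8e-05). Cntnap2, a neurexin-like gene (0.85), Lrrn1 (0.72), Ncam1 (0.54) and Alcam (0.37) were the others. Pcdh10 lost its call without replicate 3 (adjusted p = 0.072), Pcdh17 without control replicate 3 (0.098) and Cdh6 without control replicate 3 (0.068).

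Enzymes that build glycans on such surface proteins form a list drawn up after the values were seen. It had 9 of 66 genes higher and 1 lower in limma, against 0.893% and 0.694% of all genes. The list had 11 higher and 1 lower without replicate 3. St8sia4, one of the enzymes that add polysialic acid to Ncam1, was at 5.68, 5.84 and 5.63 in control and at 7.25, 7.17 and 6.66 in alphaIRS2KD cells (difference 1.31, SE 0.14, adjusted p = 0.0023 from limma). Ncam1 itself was at 9.54, 9.51 and 9.41 against 10.08, 9.96 and 10.06. Both genes were higher on every alphaIRS2KD array, and for St8sia4 replicate 3 lay nearest to control. The ganglioside sialyltransferase gene St8sia1 (1.05), the mannosidase gene Man1a (1.03), the sulfotransferase genes Chst1 (0.95) and Chst11 (0.55) and St3gal1 (0.81) rose. Gcnt4, an enzyme of mucin-type glycan branching, was the gene called lower (-0.59). St8sia1 was at the threshold without alphaIRS2KD replicate 1 (adjusted p = 0.050).

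Receptors for hormones and transmitters, beside Tshr, included 4 more of 82 genes called higher and 1 called lower. The shares over all genes, for this and the next 2 lists, were 0.893% higher and 0.694% lower. Galr1, a galanin receptor gene, was at 6.73, 6.61 and 6.62 in control and at 7.39, 7.54 and 7.20 in alphaIRS2KD cells (difference 0.72, SE 0.09, adjusted p = 0.0045 from limma). The glutamate receptor gene Grik2 was at 5.57, 5.66 and 5.51 against 6.48, 6.40 and 6.38 (difference 0.84, SE 0.07, adjusted p = 0.00059). Neither gene's groups overlapped. Gria3, an AMPA-type glutamate receptor subunit gene (0.38), and Vipr1 (0.31), a receptor gene for vasoactive intestinal peptide, were higher, and the vasopressin receptor gene Avpr1b was lower (-0.43). Vipr1 and Avpr1b lost the call without replicate 3 (adjusted p = 0.062 and 0.099, with up to 0.168 for Avpr1b without control replicate 2), and Gria3 without alphaIRS2KD replicate 1 (0.067). Of 50 receptor tyrosine kinases Kit was higher and Ddr2 was lower. In cAMP and G-protein signalling, with 59 genes, Rgs2 and Rgs7 rose. Rgs2, which restrains Gq signalling, was at 7.40, 7.29 and 7.39 in control and at 8.58, 8.64 and 8.41 in alphaIRS2KD cells (difference 1.18, SE 0.08, adjusted p = 0.00021), the opposite direction to Rgs5. A dimmer Rgs2 probe had a difference of 0.30 (adjusted p = 0.64 over all probes).

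Of 64 genes of the exocytosis machinery 5 were higher (7.81%) and none was lower in limma, and of 30 genes of prohormone processing and the secretory granule 2 were higher (6.67%) and 1 was lower (3.33%), against 0.893% and 0.694% of all genes. Most members of both lists did not pass the test. Rab27b, a GTPase gene of granule docking, was at 4.35, 4.69 and 4.40 in control and at 5.21, 5.13 and 5.09 in alphaIRS2KD cells (difference 0.67, SE 0.09, adjusted p = 0.0062 from limma). Sv2b (0.89), a vesicle membrane protein gene, the active-zone gene Erc2 (0.75), Rab3c (0.35) and the syntaxin gene Stx3 (0.34) were the others. Vgf, which encodes a granule protein cut into neuropeptides, was at 8.82, 8.81 and 8.80 against 9.31, 9.32 and 9.18 (difference 0.46, SE 0.06, adjusted p = 0.0048), so the groups were far apart for their spread. Scgn, a calcium sensor gene of endocrine cells, was higher (0.38), and Resp18, a granule protein gene, was lower (-0.27). Single arrays decided 5 of these calls. Stx3 (adjusted p = 0.065) and Scgn (0.053) lost theirs without replicate 3, Rab3c without alphaIRS2KD replicate 1 (0.093), Resp18 without control replicate 2 (0.11), and Sv2b without control replicate 3 (0.067). Without control replicate 2, Stx3 reached an adjusted p of 0.149 and Scgn of 0.0965. A dimmer Rab3c probe had a difference of -0.07.

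Among 48 islet and gut hormones and neuropeptides, Cck was the member called in limma, and 3 were called higher without replicate 3. The shares of all genes called higher were 0.893% with all arrays and 1.17% without replicate 3. Cck, which encodes cholecystokinin, was at 6.12, 6.07 and 5.77 in control and at 7.22, 7.26 and 7.48 in alphaIRS2KD cells (difference 1.34, SE 0.12, adjusted p = 0.00085). The others, Penk, which encodes the enkephalins, and Cartpt, which encodes the CART peptide, depended on replicate 3. Penk was at 5.97, 5.95 and 5.95 in control and at 6.64, 6.46 and 5.97 in alphaIRS2KD cells, so replicate 3 was at the control level and replicates 1 and 2 were above it. The difference was 0.40 (adjusted p = 0.34) with replicate 3 and 0.59 (adjusted p = 0.013) without it. Cartpt was at 8.18, 8.10 and 8.10 against 8.45, 8.39 and 8.18, and its difference was 0.21 (adjusted p = 0.30) with and 0.29 (adjusted p = 0.036) without replicate 3. Slc18a1, which loads monoamines into vesicles, had the same arrangement (5.17, 5.24 and 5.26 against 5.64, 5.67 and 5.26).

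In the insulin and IGF pathway 2 of 50 genes were higher in limma, against 0.893% of all genes. Irs2, the target of the shRNA, was the member called lower, against 0.694% of all genes. Sh2b2 (-0.26) was called lower too without replicate 3. Inppl1, a phosphatase gene that acts on the lipid product of PI 3-kinase, was at 6.85, 6.81 and 6.84 in control and at 7.20, 7.12 and 7.08 in alphaIRS2KD cells (difference 0.29, SE 0.05, adjusted p = 0.026). Socs2, an inhibitor of growth hormone signalling, was at 6.53, 6.71 and 6.67 against 7.54, 7.35 and 7.09 (difference 0.69, SE 0.13, adjusted p = 0.036), with replicate 3 nearest to control, and a dimmer Socs2 probe had a difference of 0.03. Both lost the call without control arrays, with an adjusted p of up to 0.11 without control replicate 2 for Inppl1 and 0.14 without control replicate 1 for Socs2. The insulin receptor gene Insr (difference 0.02, adjusted p = 0.91) and Akt1 (0.11, adjusted p = 0.55) did not pass the test. Tbc1d4, named after its values were seen, encodes an AKT substrate that controls glucose transporter traffic. It was at 5.57, 5.55 and 5.55 in control and at 6.62, 6.63 and 6.24 in alphaIRS2KD cells (difference 0.94, SE 0.11, adjusted p = 0.0034), and its difference in alphaIRS1KD cells was 0.00 (adjusted p = 0.999). The difference between the knockdowns was 0.94 (adjusted p = 0.0015).

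Of 35 FOXO factors and targets, 4 were lower and none was higher in limma, against 0.694% and 0.893% of all genes. There were 3 lower and 1 higher (Tnfsf10, 0.51) without replicate 3. Irs2 is 1 of the 4, and its fall was given by the design, since it is the target of the shRNA. The other lower ones were Cdkn1a, the p21 cell cycle inhibitor gene, Sesn3, a sestrin gene, and Txnip, which binds thioredoxin and limits glucose uptake. Cdkn1a was at 9.08, 9.32 and 9.28 in control and at 8.81, 8.65 and 8.49 in alphaIRS2KD cells (difference -0.58, SE 0.10, adjusted p = 0.023). Txnip was at 10.58, 10.74 and 10.71 against 10.32, 10.39 and 10.28 (difference -0.35, SE 0.06, adjusted p = 0.028), and lost its call without replicate 3 (0.063) and others, with up to 0.116 without control replicate 2. Sesn3 (-0.32) and Cdkn1a lost it without control replicate 2 (0.067 and 0.10). The factor gene Foxo1 had a difference of -0.02 (adjusted p = 0.94).

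A FOXO core motif, spelled TGTTTAC and searched on both strands in the 250 bases before each annotated start, was present in 6 of 117 genes called lower that have an upstream sequence (5.13%), 4 of 153 called higher (2.61%) and 3.14% of all 16918 genes with one. The lower genes with it were Txnip, Pdpn, Klf9, Nr2f1, Rbp4 and Dapl1, and Cck was among the higher ones. The RefSeq upstream regions (GRCm38.p6) of Txnip (plus strand, chr3:96557707-96557956) and Cck (minus strand, chr9:121495695-121495944) are shown because these genes moved in opposite directions and both hold it, with the motif or its reverse complement in capitals. A match is a description of these letters and not a measured site.
Txnip upstream region: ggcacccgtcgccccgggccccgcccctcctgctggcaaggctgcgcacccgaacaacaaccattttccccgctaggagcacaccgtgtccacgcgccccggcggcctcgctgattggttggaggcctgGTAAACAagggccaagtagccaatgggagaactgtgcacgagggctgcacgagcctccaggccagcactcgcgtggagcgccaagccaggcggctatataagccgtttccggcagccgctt
Cck upstream region: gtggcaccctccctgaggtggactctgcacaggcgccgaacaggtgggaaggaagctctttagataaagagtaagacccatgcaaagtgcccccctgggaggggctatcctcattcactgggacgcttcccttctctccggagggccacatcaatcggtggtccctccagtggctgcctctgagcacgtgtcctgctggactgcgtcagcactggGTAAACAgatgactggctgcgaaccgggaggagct

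The calls among stress-responsive genes were lower ones, and most were lost without replicate 3. Of 43 NRF2 and redox genes 5 were lower (11.6%), and of 40 genes of the integrated stress response 4 were lower (10%), against 0.694% of all genes. None was higher in either list. Since 0.893% of all genes were higher, the absence of such calls in lists of this size says little. The medians were -0.07 and -0.10. Hmox1, which breaks down heme, was at 8.29, 8.46 and 8.68 in control and at 7.51, 7.42 and 7.39 in alphaIRS2KD cells (difference -1.04, SE 0.09, adjusted p = 0.0010 from limma). Akr1b8, an aldo-keto reductase gene, was at 6.08, 6.21 and 6.06 against 5.58, 5.59 and 5.58 (difference -0.53, SE 0.05, adjusted p = 0.0017). Slc7a3, a carrier gene for cationic amino acids, was at 7.92, 7.99 and 7.99 against 7.27, 6.99 and 6.81 (difference -0.95, SE 0.10, adjusted p = 0.0027). These 3 genes kept their call in every limma alternative. The glutathione enzyme genes Gpx3 (-0.78) and Gsta4 (-0.31), the epoxide hydrolase gene Ephx1 (-0.60), and Ddit4 (-0.69), Aldh1l2 (-0.49) and Atf3 (-0.42), which respond to stress, lost theirs without replicate 3, with adjusted p between 0.055 for Gsta4 and 0.0925 for Ephx1. Without other single arrays the adjusted p of these genes reached 0.140 (Ephx1, without control replicate 3). That leaves 2 of 43 and 1 of 40 genes lower without it. Among 42 genes of the unfolded protein response and chaperones Eif2ak3, the kinase gene PERK, was the member called (-0.30, adjusted p = 0.030), and it too lost the call without replicate 3 (0.056), with up to 0.118 without control replicate 2.

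Against 0.694% of all genes lower and 0.893% higher, carriers of amino acids and other metabolites had 4 of 46 genes lower and none higher. Beside Slc7a3 and Slc38a5 these were Slc16a10 (-0.51) and Slc43a2 (-0.35), and without replicate 3 there were 4 lower and 1 higher (Slc16a7, 0.30). Slc16a10 reached an adjusted p of 0.14 and Slc43a2 of 0.076 without control replicate 2. Epas1, which encodes the oxygen-regulated factor HIF-2 alpha, was at 7.45, 7.35 and 7.19 in control and at 6.42, 6.23 and 6.27 in alphaIRS2KD cells (difference -1.03, SE 0.08, adjusted p = 0.00065 from limma). Epas1 and Hmox1 were the 2 of 49 hypoxia and glycolysis genes called, both lower.

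Immediate early genes and regulators of ERK signalling had 4 of 50 lower and none higher, against 0.694% and 0.893% of all genes. The list had 2 lower and 1 higher (Spred1, 0.40, adjusted p = 0.048) without replicate 3. Btg2, an antiproliferative gene induced by growth factors and cAMP, was at 8.88, 8.85 and 8.98 in control and at 8.17, 8.17 and 8.14 in alphaIRS2KD cells (difference -0.74, SE 0.06, adjusted p = 0.00066 from limma). Klf10 (-0.42), Ccn2 (-0.72) and Atf3 (-0.42) were the others, and Klf10 lost the call without control replicate 3 (0.058), Ccn2 without replicate 3 of alphaIRS2KD (0.066) and Atf3 likewise (0.062). The highest adjusted p was 0.155 for Ccn2 without control replicate 3 and 0.105 for Atf3 without control replicate 1. A dimmer Ccn2 probe had a difference of 0.04. Nr4a1, a nuclear receptor gene of the same class, lay above control instead (8.84, 8.56 and 8.48 against 9.28, 9.14 and 8.91), and did not pass the test (adjusted p = 0.11).

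The cAMP response element, spelled TGACGTCA, was present within 250 bases before the start of 5 of the 117 genes called lower (4.27%), 2 of the 153 called higher (1.31%) and 2.29% of all 16918 genes. The lower genes with it were Btg2, Th, Irf2bpl, Mapk10 and Zdbf2. The upstream regions of Btg2 (minus strand, chr1:134079156-134079405) and of Th (minus strand, chr7:142899996-142900245), which encodes the enzyme that starts catecholamine synthesis, are shown with the element in capitals. It begins 166 bases before the start in Btg2 and 45 bases before it in Th. The Th transcript was at 6.57, 6.87 and 6.76 against 6.29, 6.30 and 6.03 (difference -0.53, SE 0.09, adjusted p = 0.032 from limma), and lost its call without replicate 3 (0.055), with up to 0.118 without control replicate 3.
Btg2 upstream region: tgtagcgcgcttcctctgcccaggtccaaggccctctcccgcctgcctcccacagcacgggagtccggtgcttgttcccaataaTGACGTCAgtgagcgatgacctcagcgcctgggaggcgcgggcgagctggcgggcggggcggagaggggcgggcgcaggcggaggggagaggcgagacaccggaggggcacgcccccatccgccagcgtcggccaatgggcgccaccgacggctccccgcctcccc
Th upstream region: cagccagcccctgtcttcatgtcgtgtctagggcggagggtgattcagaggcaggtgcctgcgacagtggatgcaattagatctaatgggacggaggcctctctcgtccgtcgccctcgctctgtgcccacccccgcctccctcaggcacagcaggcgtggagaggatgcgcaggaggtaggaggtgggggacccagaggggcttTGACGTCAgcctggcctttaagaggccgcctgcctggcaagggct

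Genes of TGF-beta and BMP signalling form a second list drawn up after the values were seen. It had 9 of 53 members lower and 1 higher in limma, against 0.694% and 0.893% of all genes. The list had 4 lower and 1 higher without replicate 3. Id3, which blocks helix-loop-helix transcription factors and is a direct BMP target, was at 9.14, 9.10 and 9.20 in control and at 8.57, 8.52 and 8.57 in alphaIRS2KD cells (difference -0.59, SE 0.05, adjusted p = 0.00076). Tgfbi, a secreted matrix protein gene, was at 10.37, 10.26 and 10.20 against 9.75, 9.65 and 9.67 (difference -0.59, SE 0.07, adjusted p = 0.0044). The ligand gene Tgfb2 was lower (-0.48, adjusted p = 0.0089), and the ligand gene Bmp7 was higher, at 6.11, 6.31 and 6.09 against 6.90, 6.90 and 6.93 (difference 0.74, adjusted p = 0.0034). Id1 (-0.38, adjusted p = 0.086 without replicate 3), the inhibitory Smad gene Smad7 (-0.50, 0.062), Ccn2 (0.066), the transcription factor gene Snai2 (-0.36, 0.093) and Tsc22d1 (-0.25, 0.074) lost their calls without replicate 3. Without control replicate 3 the adjusted p reached 0.15 for Snai2 and 0.144 for Id1, and without control replicate 1 it reached 0.0982 for Smad7.

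Antigen presentation and interferon genes had 4 of 52 lower and none higher, against 0.694% and 0.893% of all genes. The median of the list was -0.11. B2m, the light chain of MHC class I, was at 11.55, 11.45 and 11.56 in control and at 10.82, 10.87 and 10.68 in alphaIRS2KD cells (difference -0.73, SE 0.06, adjusted p = 0.00085 from limma). Bst2, an interferon-induced membrane protein gene, was at 7.04, 7.09 and 7.12 against 6.59, 6.59 and 6.37 (difference -0.57, SE 0.07, adjusted p = 0.0058). Isg20, an interferon-induced exonuclease gene (-0.44), and Psmb8, an immunoproteasome subunit gene (-0.48), were the others. Psmb8 lost the call without replicate 3 (0.063) and without alphaIRS2KD replicate 1 (0.0927), and Isg20 without control replicate 3 (0.080).

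Several large programmes held few or no called genes. Over all genes 1.59% were called, so few calls would be met in lists of this size. These counts therefore do not set the programmes apart from other genes. None of 69 mitosis genes was called in limma, although 55 had a positive difference and the median was 0.07 (0.11 without replicate 3). None of 69 oxidative phosphorylation genes was called, although 53 had a negative difference and the median was -0.06. Of all 22180 genes, 10823 had a positive and 11354 a negative difference. At an unadjusted p under 0.05 limma had 10 mitosis genes higher and 6 oxidative phosphorylation genes lower, and the methods' Student test 9 and 6. Neither list was tested as a whole, and members of such lists vary together between arrays. Of 60 DNA replication genes 1 was lower (Cdkn1a), of 61 translation factors 1 was higher (Eif4e3, 0.76) and 1 lower (Eif2ak3), and of 94 matrix and integrin genes 2 were lower (Adamts1, -0.83, and Pdpn, -0.50). Of 43 genes of cholesterol and fatty acid synthesis Gpam was lower (-0.29), and it lost the call without each array in turn, with an adjusted p of up to 0.13. Of 66 potassium, sodium and chloride channel genes Scn9a was lower (-0.38), and of 58 calcium channel and pump genes Cacna1d was higher and Cacnb2 was lower (-0.32). Cacna1d, a pore subunit gene of L-type calcium channels, was at 6.08, 6.10 and 6.12 in control and at 6.82, 6.87 and 6.54 in alphaIRS2KD cells (difference 0.64, SE 0.08, adjusted p = 0.0056). Scn9a lost its call without replicate 3 (0.053) and control replicate 3 (0.0945), each left out alone, and Cacnb2 without control replicate 2 (0.074), and a dimmer Cacnb2 probe had a difference of 0.01.

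Other lists fell between these, against 0.893% of all genes called higher and 0.694% called lower. Of 51 islet transcription factors Ebf1, Mlxipl and Irx1 were higher. Mlxipl, which encodes the glucose-responsive factor ChREBP, was at 6.12, 6.26 and 6.18 in control and at 6.87, 6.86 and 6.92 in alphaIRS2KD cells (difference 0.69, SE 0.05, adjusted p = 0.00059 from limma). Of 48 liver-type plasma proteins Serpina1c was higher and Alb (-0.66), Serping1 (-0.52) and Rbp4 (-0.33) were lower. Alb and Serping1 lost the call without replicate 3 (0.081 and 0.067), with up to 0.127 without control replicate 1 and 0.158 without control replicate 3, and Rbp4 without control replicate 2 (0.10). Of 39 p53 targets and apoptosis genes 2 were lower (Cdkn1a and Btg2), and of 21 circadian clock genes Csnk1e was higher (0.44). None of the 7 measured genes of a list of Y-linked genes and Xist was called.

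**Figure D3:**
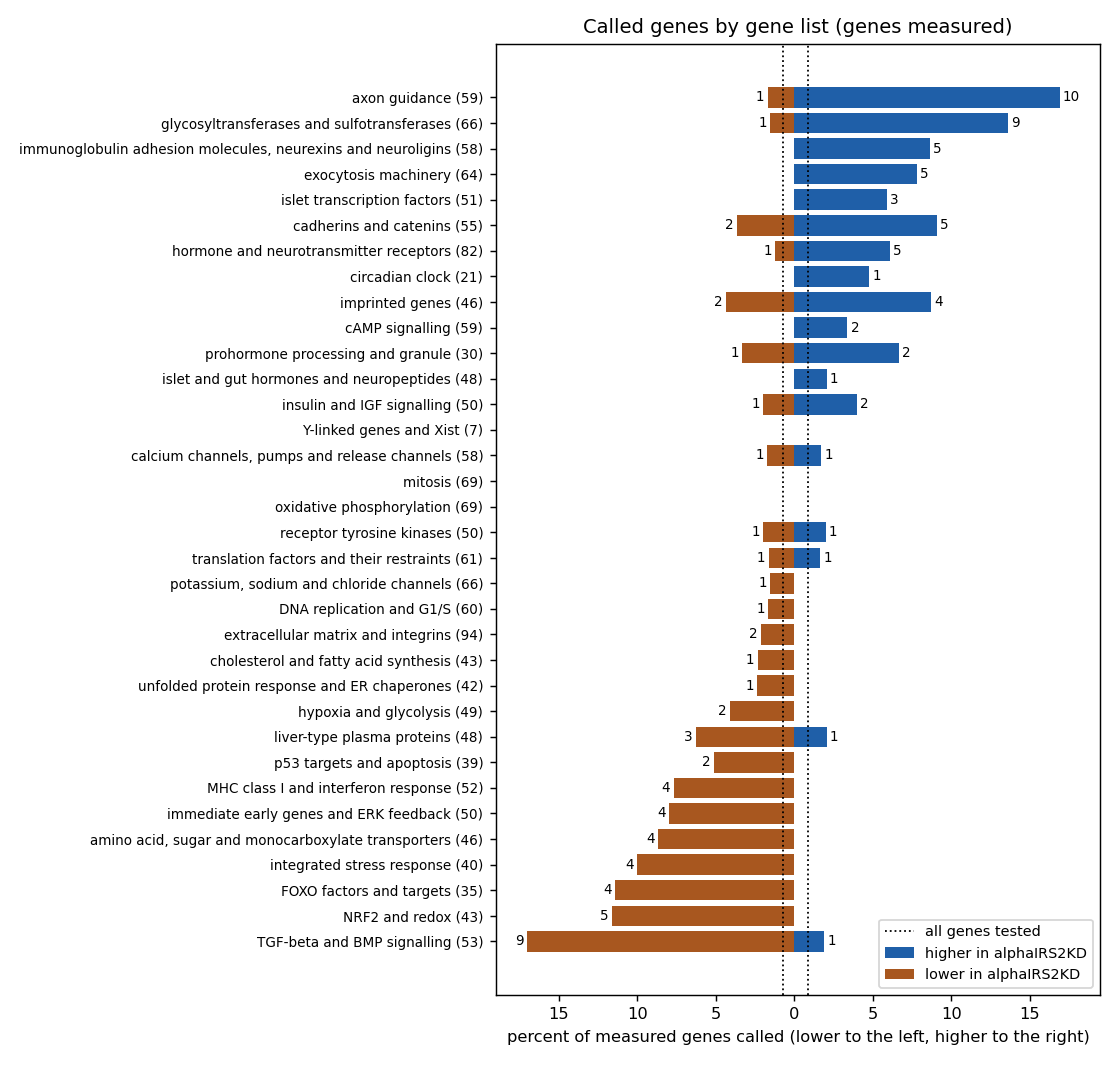
Percent of the measured genes of each list (number in brackets) called higher (right) or lower (left) in alphaIRS2KD against control cells, with the number of called genes at each bar; dotted lines mark the shares over all genes. Axon guidance has 10 higher of 59 genes, TGF-beta and BMP signalling has 9 lower of 53, and the mitosis and oxidative phosphorylation lists have no called gene.

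Imprinted genes moved in both directions, with 4 of 46 higher and 2 lower in limma, against 0.893% and 0.694% of all genes. There were 3 of each without replicate 3, when Zim1 (-0.40) was called lower too. Asb4, a gene of a ubiquitin ligase adaptor, was at 6.95, 6.86 and 6.80 in control and at 7.86, 7.81 and 7.77 in alphaIRS2KD cells (difference 0.94, SE 0.06, adjusted p = 0.00024). Peg10 (0.48), the calcitonin receptor gene Calcr (0.31) and Ppp1r9a (0.26), which neighbour it on chromosome 6, were also higher, although Ppp1r9a lost the call without replicate 3 (0.064), Peg10 without control replicate 2 (0.10) and Calcr without control replicate 3 (0.16). Zdbf2 and the noncoding RNA gene Rian were lower. Rian was at 9.24, 9.16 and 9.02 against 8.62, 8.59 and 8.62 (difference -0.53, SE 0.06, adjusted p = 0.0036).

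Rian belongs to the imprinted region between Dlk1 and Dio3 on chromosome 12, whose maternal copy yields long noncoding RNAs, small nucleolar RNAs and a large cluster of miRNAs, and the region was examined after this value was seen. Of its 54 measured genes 46 had a negative difference, 4 were lower and none was higher in limma, and the median was -0.18. Among all 22180 genes 11354 had a negative difference, 0.694% were lower and 0.893% higher, and the median was -0.0032. The snoRNA genes AF357425 (-0.77, adjusted p = 0.0048), AF357355 (-0.75, adjusted p = 0.0013) and DQ267102 (-0.62, adjusted p = 0.0099) were called with Rian. These snoRNA genes lie within the annotated span of Rian, so the 4 calls come from 1 stretch of the region. AF357355 was at 10.78, 10.55 and 10.57 in control and at 9.80, 9.90 and 9.95 in alphaIRS2KD cells, so the groups did not overlap. Of the 43 miRNA genes none was called, and 1 was called lower without replicate 3. The protein-coding gene Dlk1 had a difference of 0.35 (adjusted p = 0.42) and Meg3 of 0.0043 (adjusted p = 0.99). Genes of such a cluster can share transcripts and are not independent of each other.

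**Figure D4:**
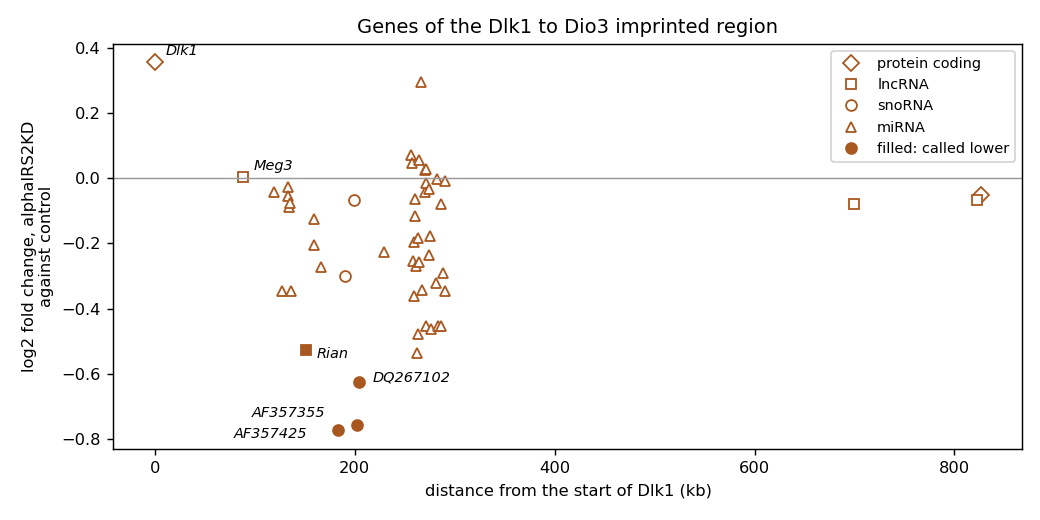
Difference between alphaIRS2KD and control cells (vertical axis, log2) for 54 genes of the Dlk1 to Dio3 region against the distance of each from the start of Dlk1 (kb); symbols mark the kind of gene and filled symbols those called. The 4 called genes lie 151.5 to 203.9 kb from Dlk1, and 46 of the 54 genes lie below 0.

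The miRNA called lower without replicate 3 was Mir667, at 5.80, 5.84 and 5.84 in control and at 5.20, 5.27 and 5.98 in alphaIRS2KD cells. Replicate 3 lay above the control arrays and replicates 1 and 2 below them, and the difference was -0.34 (adjusted p = 0.55 from limma) with it and -0.59 (adjusted p = 0.0075) without it. Over all 472 miRNA genes measured, 1 was higher and 1 was lower, against 0.893% and 0.694% of all genes. Mir344 was lower, at 6.15, 6.06 and 6.02 against 5.72, 5.57 and 5.72 (difference -0.41, SE 0.07, adjusted p = 0.029). Mir5127 was higher (0.62, adjusted p = 0.035). Both kept the call without replicate 3 (adjusted p = 0.049 for each), and both lost it without other arrays, with an adjusted p of 0.12 for Mir344 without control replicate 1 and for Mir5127 without alphaIRS2KD replicate 2. Such probes can read the precursor as well as the mature form. The mature RefSeq sequences of the 2 lower miRNAs are shown with the seed, bases 2 to 8, in capitals, and no 2 of these seeds are alike.
mmu-miR-344-3p: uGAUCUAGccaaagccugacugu
mmu-miR-344-5p: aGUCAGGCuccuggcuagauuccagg
mmu-miR-667-3p: uGACACCUgccacccagcccaag
mmu-miR-667-5p: cGGUGCUGguggagcagugagcacg

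AlphaIRS2KD cells were then compared directly with alphaIRS1KD cells. In limma alphaIRS2KD cells exceeded alphaIRS1KD cells in 536 genes (2.42%) and lay below them in 380 (1.71%). Against both control and alphaIRS1KD cells 59 genes (0.266%) were higher and 24 (0.108%) were lower, and 52 and 15 of them were also called without replicate 3. Single arrays changed these counts between the knockdowns. They were 751 higher and 381 lower without alphaIRS2KD replicate 3, and otherwise between 314 higher and 214 lower (without alphaIRS1KD replicate 1) and 445 higher and 312 lower (without control replicate 3).

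Among the genes higher against both groups, Nexmif, Cdh11, Ebf1, Barhl2, Sorbs2 and Ctnna1 ranked first by the smaller of their 2 differences. Cdh11 was 1.78 higher than in alphaIRS1KD cells (adjusted p = 0.00013 from limma), Barhl2 was 1.30 higher (adjusted p = 0.00015) and Nexmif was 2.15 higher (adjusted p = 0.0011). In alphaIRS1KD cells the same genes had differences from control of -0.17, 0.04 and -0.48, none of which passed the test (adjusted p = 0.57, 0.90 and 0.34). Gap43, a growth cone protein gene, was at 5.22, 5.15 and 5.30 in control and at 6.40, 6.29 and 5.99 in alphaIRS2KD cells, and was 1.16 higher than in alphaIRS1KD cells (adjusted p = 0.0019). Among the genes lower against both, Maob was 0.90 below alphaIRS1KD cells (adjusted p = 0.0050), Slc7a3 was 0.82 below (adjusted p = 0.0026) and Ddr2 was 1.89 below (adjusted p = 6.9e-05). Maob and Slc7a3 had differences from control of -0.05 and -0.13 in alphaIRS1KD cells. Irs2 was 0.43 lower in alphaIRS2KD than in alphaIRS1KD cells (adjusted p = 0.0039), where its difference from control was -0.15 (adjusted p = 0.23).

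For 19 genes the 2 knockdowns were called in opposite directions against the same control arrays. All 19 were also called between the knockdowns. This follows from the choice of genes, since opposite differences from the same control add up between the knockdowns. Over all genes 2.98% were called higher and 3.68% lower in alphaIRS1KD cells. In 13 the alphaIRS2KD cells were higher and in 6 they were lower. Ebf1 was at 5.69, 5.82 and 5.90 in control, at 7.30, 6.94 and 7.14 in alphaIRS2KD cells and at a mean of 4.77 in alphaIRS1KD cells, a difference of 2.36 between the knockdowns (adjusted p = 0.00011 from limma). Vgf differed from control by 0.46 in alphaIRS2KD and by -0.39 in alphaIRS1KD cells, Efnb2 by 0.54 and -0.52, and Stx3 by 0.34 and -0.43. The neuronal gene Nyap2 (0.96 and -0.61) and the potassium channel gene Kcnh5 (0.83 and -0.68) were among the larger ones. In the other direction were Ddr2 (-1.23 and 0.66), Alb, which encodes albumin (-0.66 and 1.36), the mucin-type membrane protein gene Pdpn (-0.50 and 1.10) and the desaturase-family gene Fads3 (-0.38 and 0.70). Without replicate 3, Stx3, Dlg5, Nr2f1 and Alb were no longer called in alphaIRS2KD cells (adjusted p = 0.065, 0.089, 0.11 and 0.081).

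**Figure D5:**
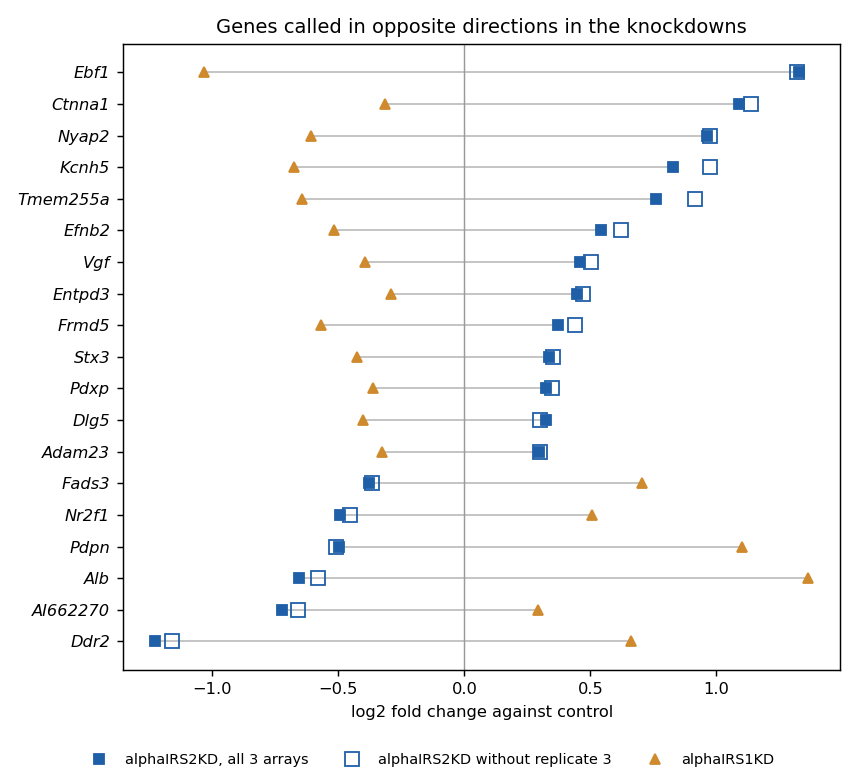
Log2 fold change against control (horizontal axis) in alphaIRS2KD cells with all 3 arrays, in alphaIRS2KD cells without replicate 3 and in alphaIRS1KD cells for the 19 genes called in opposite directions; lines join the 2 knockdowns of a gene. The upper 13 genes lie right of 0 in alphaIRS2KD cells and the lower 6 left of it, and leaving out replicate 3 moved none across 0.

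More genes were called in the same direction in both knockdowns, 128 higher and 113 lower, than in opposite directions (19). Both comparisons share the control arrays, so a deviation of those arrays moves both differences the same way. This favours calls in the same direction, and the counts and sizes are a description. Several genes described above were among those called in the same direction. In alphaIRS1KD cells the difference from control was 1.43 for Tshr, 1.32 for Cck, -1.11 for Hmox1, -1.60 for Epas1 and -1.54 for B2m. Kit differed by 1.502 in alphaIRS2KD and 1.74 in alphaIRS1KD cells, and the knockdowns themselves differed by -0.24, which missed the threshold (adjusted p = 0.13 from limma). Foxp2, a forkhead transcription factor gene, was at 4.73, 4.79 and 4.80 in control and at 5.55, 5.53 and 5.41 in alphaIRS2KD cells (difference 0.73, SE 0.07, adjusted p = 0.0010), against a difference of 1.78 in alphaIRS1KD cells, and Nfib, a nuclear factor gene, differed by 0.64 and 2.21. For both, alphaIRS2KD cells lay below alphaIRS1KD cells (differences -1.05 and -1.56, adjusted p = 8.4e-05 and 1.7e-06).

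Among 16 measured genes that the study names beside its arrays, Foxp2 and Eif2ak3 were called in alphaIRS2KD cells, against 1.59% of all genes. This selection leaves out others that the study lists, such as Kit. The secretion genes Scg5 (-0.01, adjusted p = 0.97) and Snap25 (0.07, adjusted p = 0.77), the peptide amidation gene Pam (-0.10, adjusted p = 0.46), the MHC class I loading gene Tapbp (-0.03, adjusted p = 0.91) and the lysosomal peptidase gene Tpp1 (0.08, adjusted p = 0.76) did not pass the test in limma. With all arrays the difference between the knockdowns passed it for each of these 5 genes. It was 0.47 for Scg5 (adjusted p = 0.0019), 0.30 for Snap25 (0.036), 0.36 for Pam (0.0024), 0.61 for Tapbp (0.0012) and 0.32 for Tpp1 (0.036). Snap25 (adjusted p = 0.06557 from limma) and Tpp1 (0.05062) lost this call between the knockdowns without alphaIRS2KD replicate 3. The cholesterol transporter gene Abca1 was at 8.12, 8.07 and 8.08 in control and at 8.27, 8.27 and 8.28 in alphaIRS2KD cells. Its groups did not overlap, and the difference of 0.19 (SE 0.04) did not pass the test (adjusted p = 0.10). Ano1, a chloride channel gene, overlapped between the groups (-0.11, adjusted p = 0.89), as did the calcium channel subunit gene Cacna2d1 (0.06, adjusted p = 0.76).

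Besides Penk and Slc18a1, genes called without replicate 3 in which that replicate was within the control range included Rnls, which encodes a flavin enzyme, at 5.58, 5.44 and 5.61 in control and 6.10, 5.97 and 5.52 in alphaIRS2KD cells. Ankrd1, a gene of a stress-responsive nuclear protein, was at 4.48, 4.59 and 4.54 against 4.06, 4.15 and 4.48, and Mat1a, a methionine adenosyltransferase gene, at 4.92, 4.79 and 5.00 against 4.56, 4.48 and 4.80. In each, replicates 1 and 2 were beyond the control arrays and replicate 3 was not. Skint9, Vmn1r167, Mir28a, Ccdc51, S100a7a, Gm14406 and 5430400D12Rik had the same arrangement.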

How the data were processed

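Each RNA sample was read on 1 Affymetrix array of the type Mouse Gene 2.0 ST. The authors deposited log2 signals that they had computed from the scanned intensities with RMA (version not given), which corrects background, equalizes array distributions and summarizes probes per transcript. These log2 values were used as deposited. The table holds 41345 probes, of which 17824 with several gene symbols or none were left out. Where several probes named a gene (1082 genes), the brightest over the 9 arrays stood for it, which gave 22180 genes. RefSeq upstream sequences, miRNAs and positions are of GRCm38.p6, and 16918 genes had an upstream sequence.

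Groups were compared with limma 3.58.1 in R 4.3.3, fitted to 3 groups of 3 arrays together. P-values were adjusted by Benjamini-Hochberg across the 22180 genes, and called means an adjusted p under 0.05. All adjusted p-values and SEs in the text are limma's, and values without the name of a scale are log2 signals or log2 differences. Adjusted p-values over all probes come from a fit of the whole table. On simulated data for this comparison, with 22180 genes, the fit recovered 67.2% of 67 genes changed by 0.5, 91% of 67 changed by 1 and 100% of 66 changed by 2 on the log2 scale, with 10 false calls among 182.

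Gene lists and the rule for named genes were chosen with earlier results of these data known. The rule names Irs2 and Irs1, a selection of genes the study names, up to 12 genes per direction with the largest changes called with and without alphaIRS2KD replicate 3 and with groups that do not overlap, up to 8 per direction also called against alphaIRS1KD, up to 6 per direction called without replicate 3 while that replicate lay within the control range, up to 5 called genes per list, and the members of any count of 5 or fewer. A call lost without 1 array could also be lost without others; the text gives alphaIRS2KD replicate 3 where that ended the call, and the array with the highest adjusted p for genes the rule names. The TGF-beta and glycan lists, the Dlk1 to Dio3 region, Tbc1d4, Nfib, Th, miRNA genes and other names outside it were chosen after their values were seen. Alternatives changed the model (array weights, an intensity-dependent robust prior, a block for replicate number, a fit of the compared groups alone, the methods' Student test), the values (centring on medians, quantile normalization, probes averaged per gene, no genes from the dimmest 30 percent), the threshold, or the arrays, each being left out once. Same-numbered control and alphaIRS2KD arrays did not deviate together (r = -0.03, -0.002 and -0.057), so the numbers were not taken as pairs.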

Additional observations from a re-analysis of the deposited data

Results flagged for a closer look

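Of the 17824 probes with several gene symbols or none, which the comparisons leave out, 75 (0.421%) were called between alphaIRS2KD and control cells when all probes were tested with limma, 34 of them higher and 41 lower, with log2 differences from -1.59 to 1.20. They have no single gene name here and were not followed further.

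In both knockdowns 128 genes were called higher and 113 lower against control, and the shared control arrays favour such calls. In 19 genes alphaIRS2KD and alphaIRS1KD cells were called in opposite directions against control. The difference between the knockdowns passed the limma test in each of these 19, which the opposite calls already imply. The largest was Ebf1 (1.33 in alphaIRS2KD and -1.03 in alphaIRS1KD cells, difference 2.36, adjusted p = 0.00011), and the next were Alb (difference -2.02, adjusted p = 5.1e-05) and Ddr2 (difference -1.89, adjusted p = 6.9e-05).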

How the results depend on the processing

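Leaving out 1 array at a time gave 109 to 260 higher and 69 to 124 lower genes against control, and 314 to 751 higher and 214 to 381 lower genes against alphaIRS1KD. A prior with trend and robust estimation gave 303 higher and 246 lower genes, only the 2 compared groups in the fit gave 105 and 63 (298 and 213 against alphaIRS1KD), and median centring gave 92 lower. An adjusted p under 0.01 gave 97 higher and 54 lower, and requiring 1.5-fold as well as an adjusted p under 0.05 gave 87 and 46. At an unadjusted p under 0.05, limma called 1227 higher and 1170 lower genes and the methods' Student test 919 and 854, and after adjustment the Student test called 34 and 24. Under it Irs2 (-0.5791) had an adjusted p of 0.077. With the replicate number as a block 137 genes were higher and 81 lower (356 higher against alphaIRS1KD), although the numbers did not pair the arrays. Irs1, which was never called, had a difference of -0.0016 with the mean of all its probes, -0.0212 without alphaIRS2KD replicate 2 and 0.0566 without replicate 3. The block ended the call of 35 of 121 named genes. Of the 121, none changed sign, 65 kept the call under each limma alternative, and 51 lost it without at least 1 array, 44 of them without control replicate 3. The causes of these differences were not tested. The number of arrays limits what can be called.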
